A study of Mus musculus with 9 samples.

Results

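The genes described here are those of glucose breakdown by glycolysis and of the response to low oxygen: 34 genes listed by name for glucose and lactate carriers, glycolytic enzymes, pyruvate dehydrogenase kinases, oxygen-sensing factors and targets of those factors. A gene was read from the array row whose platform symbol was its name, and, where it had several rows, from the one whose mean over the 9 arrays was highest. Of the 34 genes, 31 were measured, among 19938 genes tested in all. Gapdh stood only on 25 rows that name it together with other genes, and Gpi1 and Eno1 were not on a row with a name here, so no values are given for these 3 genes.

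The RNA came from innate intraepithelial lymphocytes, the lymphocytes without a T cell receptor that lie between the epithelial cells of the small intestine. The mice were NOD-SCID, a strain that lacks mature T and B cells, and were 8 to 10 weeks old; no treatment was given. CD3- CD45+ cells were sorted to a purity over 98% by the NK receptor Ly49E and by the CD8 alpha homodimer (CD8aa) into 3 populations of 3 arrays each: Ly49E+CD8aa+, Ly49E+CD8aa- and Ly49E-CD8aa+. All 3 share the strain, the tissue, the age and the CD3- CD45+ gate; the labels do not say how many mice gave an array its RNA, and p-values measure the spread between arrays labelled as biological replicates. Levels are log2 values on Affymetrix Mouse Gene 1.0 ST arrays as deposited, so a difference of 1 is a 2-fold difference.

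Glycolysis splits glucose into pyruvate in the cytosol and yields ATP without oxygen; lactate dehydrogenase and lactate carriers then dispose of the pyruvate, while pyruvate dehydrogenase kinases keep it from the mitochondria. When oxygen is scarce, the prolyl hydroxylases Egln1 and Egln3 no longer mark the alpha subunits Hif1a and Epas1 for degradation, and these factors raise the transcription of glycolytic and other genes, Egln3 itself among them. Activated lymphocytes also raise glycolysis, and the epithelial border of the gut is known as a low-oxygen site.

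HIF factors bind DNA at a short core of which ACGTG is a form, and only this form was searched. The promoters of 4 genes that come up in the results are shown because they hold those letters within 250 bases before the start. They are Egln3, the hydroxylase that feeds back on HIF, Bnip3 and Ankrd37, both HIF targets, and Pgk1, an enzyme of glycolysis. Each sequence is the 250 bases before an annotated start, 5′ to 3′ on the gene's strand, from RefSeq on GRCm38.p6, with matches to ACGTG on either strand in capitals: Egln3 at chr12:54203875-54204124 (minus strand), Bnip3 at chr7:138909507-138909756 (minus), Ankrd37 at chr8:45999851-46000100 (minus) and Pgk1 at chrX:106186850-106187099 (plus).
Egln3: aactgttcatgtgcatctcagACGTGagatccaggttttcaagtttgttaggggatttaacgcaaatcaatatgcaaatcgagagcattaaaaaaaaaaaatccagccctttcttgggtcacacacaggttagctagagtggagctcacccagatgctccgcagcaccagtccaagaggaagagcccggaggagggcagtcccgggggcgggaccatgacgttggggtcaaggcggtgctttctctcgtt
Bnip3: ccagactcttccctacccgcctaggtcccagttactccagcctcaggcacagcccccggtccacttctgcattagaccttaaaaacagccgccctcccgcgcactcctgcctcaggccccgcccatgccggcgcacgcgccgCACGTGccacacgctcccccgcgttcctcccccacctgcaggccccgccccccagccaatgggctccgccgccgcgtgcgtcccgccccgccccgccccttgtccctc
Ankrd37: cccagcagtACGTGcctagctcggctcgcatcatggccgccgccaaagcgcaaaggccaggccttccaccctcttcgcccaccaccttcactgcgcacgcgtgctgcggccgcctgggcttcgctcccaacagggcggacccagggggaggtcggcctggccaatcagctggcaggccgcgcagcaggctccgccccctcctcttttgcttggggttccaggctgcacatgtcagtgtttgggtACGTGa
Pgk1: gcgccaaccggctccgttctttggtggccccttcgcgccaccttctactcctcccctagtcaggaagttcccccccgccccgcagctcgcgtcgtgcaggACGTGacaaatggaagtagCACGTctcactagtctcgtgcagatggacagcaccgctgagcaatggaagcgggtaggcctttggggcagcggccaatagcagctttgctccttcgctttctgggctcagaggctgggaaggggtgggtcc
The Egln3 window holds 1 match, with its first base 229 bases before the start. The Pgk1 window holds 2 separate matches, at 150 and 131 bases before the start, and the Ankrd37 window also 2, at 241 and 6 bases. In Bnip3 the matches on the 2 strands overlap in the palindrome CACGTG, at 108 and 107 bases.

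RefSeq windows were at hand for 29 of the 31 measured genes; Epas1 and Slc2a3 were the other two. At least 1 window held ACGTG, on either strand, in 20 of the 29 genes (69%), against 4998 of 27025 genes with a window (18.5%). By window the letters were in 23 of 42 (54.8%), against 16.6% of all windows of that length, and the palindrome CACGTG, which holds ACGTG on both strands at once, was in 7 of 42 (16.7%), against 6.02%. Several of the genes were listed because they are known HIF targets, so these shares describe the choice of genes. A match is a run of letters, not a bound site.

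Before the results, the sort markers were read on the same arrays. Klra5, which encodes Ly49E, averaged 11.40 in Ly49E+CD8aa+, 11.43 in Ly49E+CD8aa- and 6.59 in Ly49E-CD8aa+ cells. Cd8a averaged 12.55 in Ly49E+CD8aa+, 11.42 in Ly49E+CD8aa- and 12.58 in Ly49E-CD8aa+ cells, and Ptprc, which encodes CD45, 11.83 in Ly49E+CD8aa+, 11.82 in Ly49E+CD8aa- and 11.85 in Ly49E-CD8aa+ cells. Array medians ran from 5.76 to 5.82 over all 9 arrays. Of the 31 genes, 30 were above the array's own 25th percentile on every array, and Slc16a1, a lactate carrier, was below it on 2 arrays. Exactly repeated values between arrays occurred in 17 of the 31 genes (54.8%), against 60.5% of all genes, and within a population in 8 (25.8%), against 36.3%; Ldha had 1 value on all 3 Ly49E+CD8aa- arrays, so its SD of 0 there is not a measure of spread. The source of the repeats was not tested.

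Of the 31 genes, Epas1 alone was called different between populations. It encodes HIF-2alpha, the oxygen-labile subunit best known from endothelium and from red cell control. Its log2 level was 5.88, 5.61 and 5.77 on the Ly49E+CD8aa+ arrays, 7.76, 7.37 and 7.46 on the Ly49E+CD8aa- arrays, and 5.64, 5.47 and 5.18 on the Ly49E-CD8aa+ arrays. All 3 Ly49E+CD8aa- arrays lay above all 6 others, and both CD8aa+ populations overlapped in level. The F test of limma over the 3 populations, adjusted over all genes by Benjamini-Hochberg, gave an adjusted p of 8.08e-05 for Epas1 and called no other of the 31 genes, against 2.03% of all genes called. In such bulk samples, fewer cells that express a gene and less RNA per cell cannot be told apart.

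**Figure D1:**
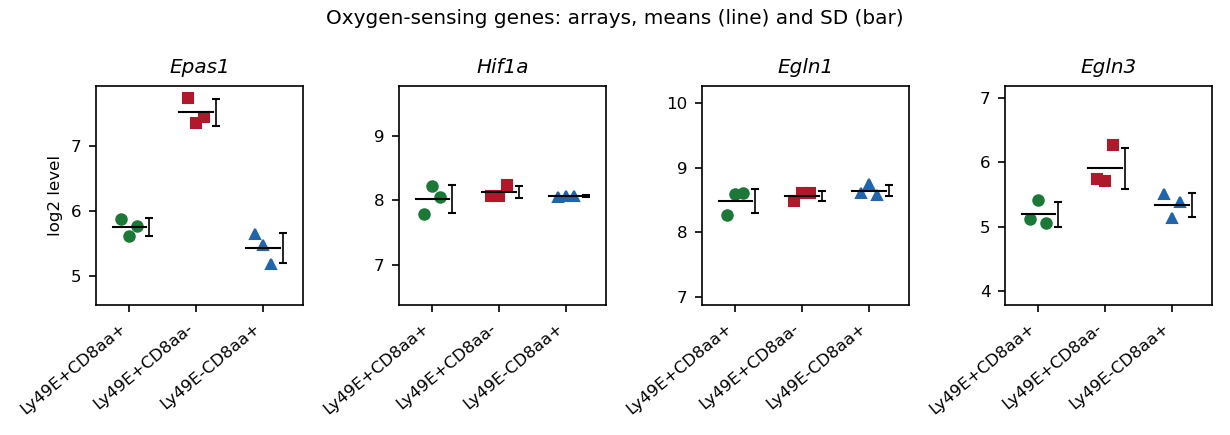
Log2 level (vertical axis, the same span in each panel) of Epas1, Hif1a, Egln1 and Egln3 on each array of the 3 populations; points are arrays, lines are means and bars are SD over 3 arrays. The Ly49E+CD8aa- arrays of Epas1 lie between 7.37 and 7.76, above all other arrays, while the Hif1a and Egln1 points of the populations overlap.

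Ly49E+CD8aa+ cells had Epas1 at 5.75 ± 0.135, against 7.53 ± 0.205 in Ly49E+CD8aa- cells (SD, n = 3 each), a log2 difference of -1.78 (SE 0.139, 95% interval -2.09 to -1.46) or 3.43-fold lower, with a limma adjusted p of 0.000163. Ranked by size without regard to sign, this was 70th of 19938 genes. Ly49E+CD8aa- cells had Epas1 at 7.53 ± 0.205 against 5.43 ± 0.230 in Ly49E-CD8aa+ cells (SD, n = 3 each), a log2 difference of 2.10 (95% interval 1.78 to 2.41) or 4.28-fold higher, limma adjusted p = 4.99e-05, ranked 52nd. Both comparisons use the same 3 Ly49E+CD8aa- arrays and are not independent. Between Ly49E+CD8aa+ and Ly49E-CD8aa+ cells the difference in Epas1 was 0.32 (95% interval 0.01 to 0.64), with a limma adjusted p of 1.

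Epas1 is abundant in endothelium, so markers of stroma and endothelium (Col1a1, Col1a2, Col3a1, Dcn, Pdgfra, Pecam1, Cdh5 and Kdr) were read beside it. Their summed signal, as log2, ran from 10.20 to 10.46 in Ly49E+CD8aa+, from 9.92 to 10.07 in Ly49E+CD8aa- and from 10.17 to 10.31 in Ly49E-CD8aa+ cells. The sum adds unlogged signals, and most of it came from Pecam1, which leukocytes also express, so it mainly follows that gene. Pecam1 averaged 9.78 in Ly49E+CD8aa+, 9.37 in Ly49E+CD8aa- and 9.67 in Ly49E-CD8aa+ cells. The endothelial cadherin Cdh5 averaged 5.14 in Ly49E+CD8aa+, 5.21 in Ly49E+CD8aa- and 5.25 in Ly49E-CD8aa+ cells. None of the 8 was called by limma in any comparison, 2 at an unadjusted p under 0.05 in Ly49E+CD8aa+ against Ly49E+CD8aa- cells, both higher, and 1 in Ly49E+CD8aa- against Ly49E-CD8aa+ cells, lower; on each array 2 were below its 25th percentile. Markers of macrophages and monocytes summed to 9.09 to 9.11 in Ly49E+CD8aa+, 8.80 to 8.87 in Ly49E+CD8aa- and 9.39 to 9.86 in Ly49E-CD8aa+ cells; of their 13, 2 were called lower in Ly49E+CD8aa+ against Ly49E-CD8aa+ cells and 2 in Ly49E+CD8aa- against Ly49E-CD8aa+ cells. Dendritic cell markers summed to 10.96 to 11.08 in Ly49E+CD8aa+, 11.10 to 11.29 in Ly49E+CD8aa- and 11.29 to 11.74 in Ly49E-CD8aa+ cells; of their 12, 1 was called higher and 4 lower in Ly49E+CD8aa- against Ly49E-CD8aa+ cells, and 3 lower in Ly49E+CD8aa+ against Ly49E-CD8aa+ cells. Enterocyte markers summed to 12.89 to 13.42 in Ly49E+CD8aa+, 12.56 to 13.41 in Ly49E+CD8aa- and 12.51 to 13.47 in Ly49E-CD8aa+ cells, overlapping in all 3. None of the 12 was called by limma, and 1 was at an unadjusted p under 0.05 in each comparison. Most of the 12, Krt20 among them, were highest on replicate 1 in each population, as given further below. Of the markers of secretory epithelium, B and plasma cells, granulocytes and mast cells, and erythroid cells, 1 of 5 for B and plasma cells was called, lower in each comparison against Ly49E-CD8aa+ cells. Markers of the innate intraepithelial lymphocytes themselves also differed in the comparisons that called Epas1. Their summed signal ran from 15.65 to 15.71 in Ly49E+CD8aa+, from 15.37 to 15.41 in Ly49E+CD8aa- and from 15.57 to 15.61 in Ly49E-CD8aa+ cells. Of the 11, limma called 5 higher in Ly49E+CD8aa+ against Ly49E+CD8aa- cells, the sort marker Cd8a (1.13), Cd3e (1.05), Prf1 (0.58), Il2rb (0.40) and Itgae (0.31), named after their values were seen. In Ly49E+CD8aa- against Ly49E-CD8aa+ cells the same 5 were called lower, and Klra5 higher. The 5 differences were -1.16 for Cd8a, -0.98 for Cd3e, -0.76 for Prf1, -0.36 for Il2rb and -0.34 for Itgae. Id2, of the same list, went the other way without overlap of arrays but was not called. It differed by -0.24 in the first of these comparisons (limma adjusted p = 0.517) and by 0.45 in the second (adjusted p = 0.0691). Over the 11 markers, 9 differences were positive and 2 negative in the first comparison, and 2 positive and 9 negative in the second. The part of any of these cell types or markers in the glycolysis and hypoxia genes was not tested.

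Egln3, the prolyl hydroxylase whose transcription HIF raises and whose promoter is shown above, had the next largest difference but was not called. It read 5.12, 5.41 and 5.05 on the Ly49E+CD8aa+ arrays, 5.74, 5.71 and 6.27 on the Ly49E+CD8aa- arrays, and 5.51, 5.13 and 5.37 on the Ly49E-CD8aa+ arrays. Its 3 Ly49E+CD8aa- arrays lay above the other 6. The difference of Ly49E+CD8aa+ from Ly49E+CD8aa- cells was -0.71 (95% interval -1.09 to -0.33, limma adjusted p = 0.0901), and that of Ly49E+CD8aa- from Ly49E-CD8aa+ cells 0.57 (95% interval 0.19 to 0.95, adjusted p = 0.199). The other oxygen sensors differed by little: Hif1a, the alpha subunit present in most cells, averaged 8.02 ± 0.212 in Ly49E+CD8aa+, 8.13 ± 0.094 in Ly49E+CD8aa- and 8.07 ± 0.010 in Ly49E-CD8aa+ cells, and Egln1, the main oxygen-sensing hydroxylase, 8.48 ± 0.188 in Ly49E+CD8aa+, 8.56 ± 0.075 in Ly49E+CD8aa- and 8.65 ± 0.086 in Ly49E-CD8aa+ cells (SD, n = 3 each). Their ranges overlapped in all comparisons. Hif1a read 8.08, 8.08 and 8.24 on Ly49E+CD8aa- arrays and 8.06, 8.08 and 8.08 on Ly49E-CD8aa+ arrays. The 8.08 is an exactly repeated value, so the SDs of Hif1a there are a poor measure of spread.

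**Figure D2:**
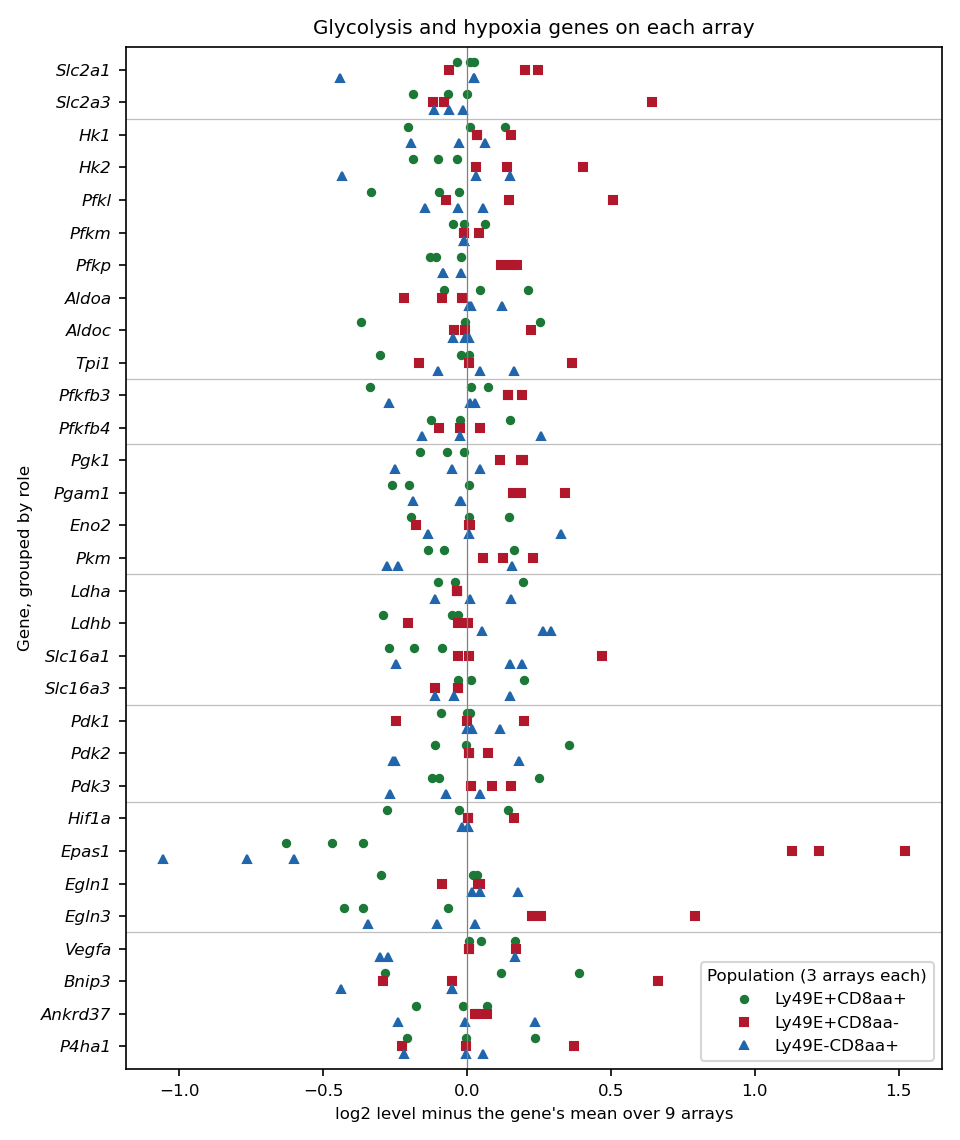
Log2 level of each measured gene on each array minus that gene's mean over the 9 arrays (horizontal axis), for the 31 genes in order of role (vertical axis), with 3 points per population. Epas1 is the gene with the widest split, its Ly49E+CD8aa- points far to the right of the other 6, and for most other genes the populations overlap.

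Glucose enters lymphocytes through Slc2a1 (GLUT1) and Slc2a3 (GLUT3). Slc2a1 averaged 8.01 ± 0.031 in Ly49E+CD8aa+, 8.14 ± 0.168 in Ly49E+CD8aa- and 7.88 ± 0.269 in Ly49E-CD8aa+ cells, and Slc2a3 7.89 ± 0.096 in Ly49E+CD8aa+, 8.13 ± 0.429 in Ly49E+CD8aa- and 7.91 ± 0.050 in Ly49E-CD8aa+ cells (SD, n = 3 each). The Ly49E+CD8aa- mean of Slc2a3 holds 1 array at 8.62, the other two being 7.90 and 7.86, which lie within the levels of the CD8aa+ populations. Neither was called by limma in any comparison.

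The preparatory phase runs from hexokinase to triose phosphate, and 8 of its 9 listed genes were measured. Hk1, the widely expressed hexokinase, read 11.45 to 11.79 on the Ly49E+CD8aa+ arrays, 11.69 to 11.81 on the Ly49E+CD8aa- arrays and 11.46 to 11.72 on the Ly49E-CD8aa+ arrays. Hk2, the hexokinase raised by HIF and by growth signals, averaged 5.68 ± 0.077 in Ly49E+CD8aa+, 5.98 ± 0.190 in Ly49E+CD8aa- and 5.70 ± 0.309 in Ly49E-CD8aa+ cells; the Ly49E+CD8aa+ arrays all lay below the Ly49E+CD8aa- arrays. Pfkp, the platelet-type phosphofructokinase at the committed step, read 9.59, 9.68 and 9.57 on Ly49E+CD8aa+ arrays, 9.85, 9.87 and 9.82 on Ly49E+CD8aa- arrays and 9.62, 9.68 and 9.62 on Ly49E-CD8aa+ arrays, with all Ly49E+CD8aa- arrays the highest. The Pfkp differences were -0.23 (limma adjusted p = 0.129) for Ly49E+CD8aa+ against Ly49E+CD8aa- cells and 0.21 (adjusted p = 0.173) for Ly49E+CD8aa- against Ly49E-CD8aa+ cells, so neither was called. Of the other phosphofructokinase genes, Pfkl averaged 6.20 in Ly49E+CD8aa+, 6.55 in Ly49E+CD8aa- and 6.31 in Ly49E-CD8aa+ cells, and Pfkm 6.13 in Ly49E+CD8aa+, 6.14 in Ly49E+CD8aa- and 6.12 in Ly49E-CD8aa+ cells.

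Aldolase A (Aldoa), which splits the phosphorylated sugar, differed in the other direction: it read 11.47, 11.31 and 11.18 on Ly49E+CD8aa+ arrays, 11.18, 11.24 and 11.04 on Ly49E+CD8aa- arrays and 11.38, 11.27 and 11.27 on Ly49E-CD8aa+ arrays. All Ly49E+CD8aa- arrays lay below the Ly49E-CD8aa+ arrays, and the difference of -0.16 was not called (limma adjusted p = 0.629). Aldoc, its paralog, and Tpi1, the triose phosphate isomerase, differed by -0.17 to 0.07 between populations, with ranges that overlapped. Pfkfb3, which makes the activator of phosphofructokinase and is a HIF target, averaged 6.57 ± 0.222 in Ly49E+CD8aa+, 6.81 ± 0.029 in Ly49E+CD8aa- and 6.57 ± 0.168 in Ly49E-CD8aa+ cells, its Ly49E+CD8aa- arrays above all others. Pfkfb4, of the same family, averaged 5.65 in Ly49E+CD8aa+, 5.62 in Ly49E+CD8aa- and 5.67 in Ly49E-CD8aa+ cells.

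In the energy-yielding steps 4 of 6 listed genes were measured. Pgk1, the first ATP-forming kinase, whose promoter with 2 ACGTG matches is shown above, read 10.23, 10.08 and 10.17 on Ly49E+CD8aa+ arrays, 10.43, 10.44 and 10.36 on Ly49E+CD8aa- arrays and 10.29, 9.99 and 10.19 on Ly49E-CD8aa+ arrays. Pgam1, the mutase that follows it, read 8.30, 8.03 and 8.09 on Ly49E+CD8aa+ arrays, 8.48, 8.64 and 8.45 on Ly49E+CD8aa- arrays and 8.11, 8.27 and 8.27 on Ly49E-CD8aa+ arrays. For both genes, on the row used, the 3 Ly49E+CD8aa- arrays lay above the other 6. Against Ly49E+CD8aa- cells, Ly49E+CD8aa+ cells differed by -0.25 for Pgk1 (limma adjusted p = 0.331) and by -0.38 for Pgam1 (adjusted p = 0.0959). Against Ly49E-CD8aa+ cells, Ly49E+CD8aa- cells differed by 0.25 for Pgk1 (limma adjusted p = 0.285) and by 0.31 for Pgam1 (adjusted p = 0.201). Pkm, the pyruvate kinase of most cells, averaged 9.49 in Ly49E+CD8aa+, 9.65 in Ly49E+CD8aa- and 9.39 in Ly49E-CD8aa+ cells. Eno2, the enolase named for neurons, averaged 4.84 in Ly49E+CD8aa+, 4.80 in Ly49E+CD8aa- and 4.92 in Ly49E-CD8aa+ cells.

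Several of these genes have near-identical processed copies in the genome and are open to cross-hybridisation. Pgk1 and Pgam1 have 3 rows each, 2 of them with the same values on every array, and the third row of each gave differences of the same sign: -0.25 and 0.24 for Pgk1, and -0.32 and 0.29 for Pgam1, in Ly49E+CD8aa+ against Ly49E+CD8aa- and in Ly49E+CD8aa- against Ly49E-CD8aa+ cells. Hk1 has 2 rows, of which the one used carries 1 accession and the other 8; the rows disagreed in sign, at -0.10 on the row used and 0.04 on the other for Ly49E+CD8aa+ against Ly49E+CD8aa- cells, and at 0.13 and -0.03 for Ly49E+CD8aa- against Ly49E-CD8aa+ cells. The rows of Ldhb also disagreed in sign for Ly49E+CD8aa+ against Ly49E+CD8aa- cells, at -0.05 on the row used and 0.09 on the other, and so did those of Bnip3, at -0.03 and 0.12. Whether the rows used for Hk1, Pkm, Ldhb and Bnip3 read a copy of the gene was not tested. No gene of the set with several rows was called.

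**Figure D3:**
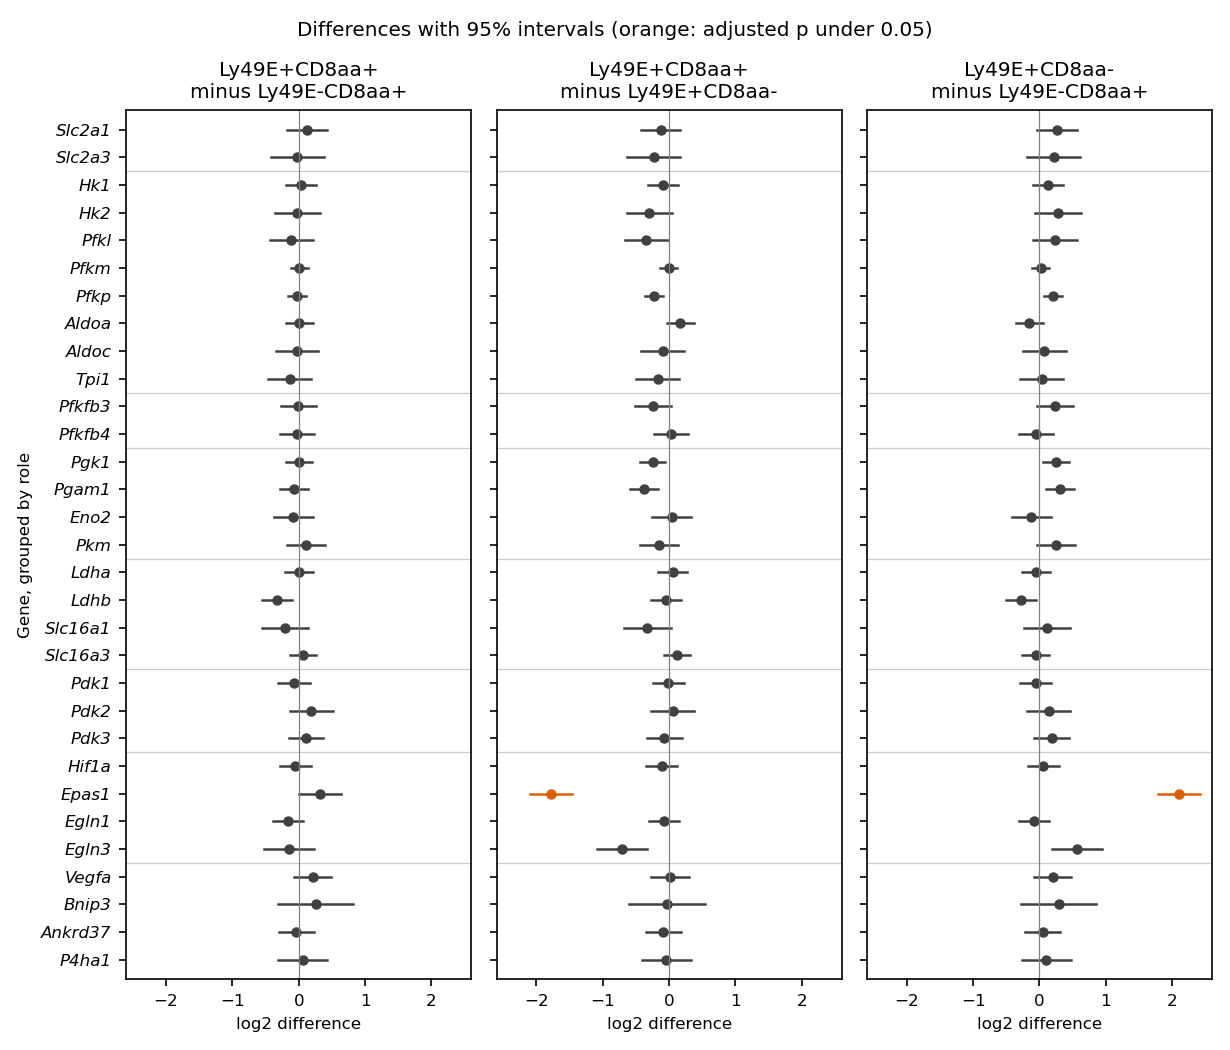
Log2 differences (horizontal axes) of the 31 genes in the 3 comparisons, as points with 95% intervals from limma; orange marks an adjusted p under 0.05. Epas1 is the single orange gene, in both comparisons that involve Ly49E+CD8aa- cells, and the other intervals lie mostly within 0.5 of 0.

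Pyruvate leaves glycolysis as lactate through Ldha and Ldhb, the muscle-type and heart-type lactate dehydrogenase subunits, and crosses the membrane through Slc16a1 and Slc16a3 (MCT1 and MCT4). Ldhb read 4.84, 4.59 and 4.82 on Ly49E+CD8aa+ arrays, 4.67, 4.84 and 4.88 on Ly49E+CD8aa- arrays and 5.17, 4.93 and 5.14 on Ly49E-CD8aa+ arrays, with all Ly49E-CD8aa+ arrays the highest. On its other row, at 4.72, 4.37 and 4.18 on Ly49E+CD8aa+ arrays, 4.33, 4.45 and 4.21 on Ly49E+CD8aa- arrays and 5.28, 4.60 and 4.28 on Ly49E-CD8aa+ arrays, the populations overlapped, so this separation rests on the row used. On the row used Ldhb differed by -0.33 in Ly49E+CD8aa+ against Ly49E-CD8aa+ cells (limma adjusted p = 1) and by -0.28 in Ly49E+CD8aa- against Ly49E-CD8aa+ cells (adjusted p = 0.33). Ldha averaged 9.60 in Ly49E+CD8aa+, 9.55 in Ly49E+CD8aa- and 9.60 in Ly49E-CD8aa+ cells. Of its promoter windows, 1 held 5 ACGTG matches over both strands, where a palindrome CACGTG counts once on each strand. Slc16a1 averaged 4.44 in Ly49E+CD8aa+, 4.77 in Ly49E+CD8aa- and 4.65 in Ly49E-CD8aa+ cells, and Slc16a3, which HIF raises, 6.86 in Ly49E+CD8aa+, 6.74 in Ly49E+CD8aa- and 6.80 in Ly49E-CD8aa+ cells. For these 3 genes no populations separated, except that every Ly49E+CD8aa+ array of Slc16a1 lay below the Ly49E+CD8aa- arrays.

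The pyruvate dehydrogenase kinases Pdk1, Pdk2 and Pdk3, of which Pdk1 is a known HIF target, and the HIF targets Vegfa (a growth factor for vessels), Bnip3 (a mitochondrial mitophagy receptor), Ankrd37 (an ankyrin-repeat protein) and P4ha1 (a collagen prolyl hydroxylase) had 0 called by limma in any comparison, and none at an unadjusted p under 0.05. The 3 kinases differed by -0.07 to 0.19 over the comparisons, and the 4 targets by -0.09 to 0.29. Bnip3 had the largest spread of the 31 genes in the Ly49E+CD8aa- population, where it read 8.41, 7.69 and 7.45.

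Across the 31 genes, Ly49E+CD8aa+ against Ly49E-CD8aa+ cells had 0 called higher and 0 called lower by limma at an adjusted p under 0.05, against 0.0201% and 0.11% of all genes. At an unadjusted p under 0.05 there were 2, Epas1 higher and Ldhb lower, against 4.18% of all genes, and the arrays did not overlap in 1 gene that was lower, Ldhb, against 3.38% of all genes, and in 0 that were higher, against 2.88%. The differences ran from -0.33 to 0.32 with a median of -0.02, against -0.00 over all genes, and 17 were negative (54.8%, against 50.3% of all genes). All 31 had a 95% interval within 1 log2 unit of 0 and 25 (80.6%) within 0.5, against 87.3% of all genes.

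Ly49E+CD8aa+ against Ly49E+CD8aa- cells had 1 gene called lower (Epas1) and 0 higher by limma, against 1.22% and 0.476% of all genes. At an unadjusted p under 0.05 there were 6, against 9.43% of all genes, and all were lower: Pfkl, Pfkp, Pgk1, Pgam1, Epas1 and Egln3. The arrays did not overlap in 8 genes that were lower (Hk2, Pfkp, Pfkfb3, Pgk1, Pgam1, Slc16a1, Epas1 and Egln3), against 5.52% of all genes, and in 0 that were higher, against 7.41%. In all, 24 of the 31 differences were negative (77.4%), against 40.4% of all genes, with a median of -0.10, against 0.03 over all genes; without Epas1 the median was -0.09. The 95% interval lay within 1 log2 unit of 0 for 29 genes, the exceptions being Epas1 and Egln3. It lay within 0.5 for 22 (71%), against 83.1% of all genes.

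Ly49E+CD8aa- against Ly49E-CD8aa+ cells had 1 gene called higher (Epas1) and 0 lower, against 1.35% and 0.802% of all genes. At an unadjusted p under 0.05 limma gave 5 higher (Pfkp, Pgk1, Pgam1, Epas1 and Egln3) and 1 lower (Ldhb), against 10.4% of all genes in either direction. Arrays did not overlap in 6 higher genes (Pfkp, Pfkfb3, Pgk1, Pgam1, Epas1 and Egln3), against 5.29% of all genes, and in 2 lower ones (Aldoa and Ldhb), against 7.45%. Of the 31 differences 23 were positive (74.2%), against 41.2% of all genes, and the median was 0.13, against -0.02 over all genes; without Epas1 it was 0.12. The 95% interval lay within 1 log2 unit of 0 for 30 genes and within 0.5 for 20 (64.5%), against 82.1% of all genes within 0.5. The genes share a pathway, were chosen together and are no independent replicates, and both comparisons share the Ly49E+CD8aa- arrays, so these shares are descriptions and carry no test.

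Averaged over the 31 genes, the log2 level per array ran from 7.37 to 7.43 in Ly49E+CD8aa+, from 7.55 to 7.61 in Ly49E+CD8aa- and from 7.34 to 7.46 in Ly49E-CD8aa+ cells. Without Epas1 it ran from 7.43 to 7.48 in Ly49E+CD8aa+, 7.55 to 7.61 in Ly49E+CD8aa- and 7.40 to 7.52 in Ly49E-CD8aa+ cells. The mean of all genes tested ran from 6.21 to 6.26 in Ly49E+CD8aa+, 6.22 to 6.23 in Ly49E+CD8aa- and 6.22 to 6.26 in Ly49E-CD8aa+ cells. Over the 20 genes from glucose uptake to lactate it ran from 7.58 to 7.67 in Ly49E+CD8aa+, 7.70 to 7.79 in Ly49E+CD8aa- and 7.58 to 7.73 in Ly49E-CD8aa+ cells. The 3 Ly49E+CD8aa- arrays gave the 3 highest means over the 31 genes and over the 30 without Epas1, but over the 20 they overlapped with Ly49E-CD8aa+ replicate 1, while their means over all genes lay inside the spread of the other populations.

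**Figure D4:**
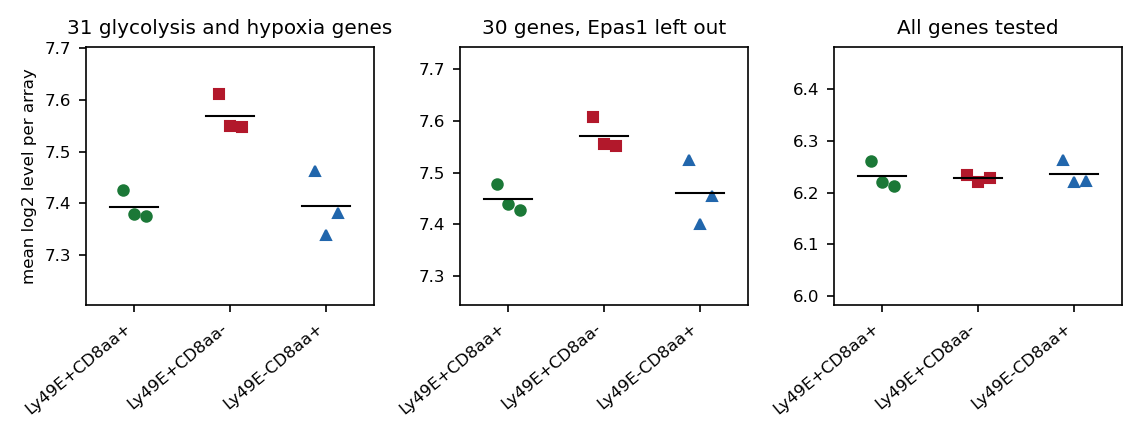
Mean log2 level per array (vertical axes, the same span in each panel) over the 31 genes, over 30 without Epas1 and over all genes tested, with points for arrays and lines for the mean of 3. The Ly49E+CD8aa- arrays lie highest in the first 2 panels, at 7.55 to 7.61, and the populations overlap over all genes.

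The rest of the pathway was read from 9 companion lists of 139 genes, 132 of them measured, which hold none of the 31. By limma 0 were called in Ly49E+CD8aa+ against Ly49E-CD8aa+ cells, against 0.0201% higher and 0.11% lower of all genes. At an unadjusted p under 0.05 there were 4 higher and 4 lower, against 4.18% in either direction. In Ly49E+CD8aa+ against Ly49E+CD8aa- cells 1 was called higher and 2 lower, against 0.476% and 1.22%. Unadjusted, 8 were higher and 10 lower, against 9.43%. In Ly49E+CD8aa- against Ly49E-CD8aa+ cells 1 was called higher and 2 lower, against 1.35% and 0.802%. Unadjusted, 10 were higher and 10 lower, against 10.4%. None was called among 13 other isoforms of glycolytic enzymes, 7 gluconeogenesis, 7 pentose phosphate, 10 mitochondrial pyruvate entry and 17 tricarboxylic acid cycle genes, with 0 to 3 of a list at an unadjusted p under 0.05 in a comparison. The medians of all 9 lists lay between -0.07 and 0.06 in all comparisons.

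The 32 other HIF targets measured had 0 called by limma in any comparison. At an unadjusted p under 0.05 there were 2 higher and 1 lower in Ly49E+CD8aa+ against Ly49E-CD8aa+ cells, against 4.18% of all genes in either direction. There were 1 higher and 5 lower in Ly49E+CD8aa+ against Ly49E+CD8aa- cells, against 9.43%, and 5 higher and 3 lower in Ly49E+CD8aa- against Ly49E-CD8aa+ cells, against 10.4%. The medians of the 32 differences were 0.02, -0.00 and 0.05 in these 3 comparisons. The largest difference among them, named after the values were seen, was that of Hilpda, a lipid droplet protein induced by hypoxia. Hilpda read 7.81, 6.68 and 7.12 on Ly49E+CD8aa+ arrays, 8.96, 8.38 and 7.91 on Ly49E+CD8aa- arrays and 7.19, 7.20 and 7.75 on Ly49E-CD8aa+ arrays. It differed by -1.21 in Ly49E+CD8aa+ against Ly49E+CD8aa- cells (limma adjusted p = 0.156) and by 1.04 in Ly49E+CD8aa- against Ly49E-CD8aa+ cells (adjusted p = 0.235).

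Of the 14 other HIF subunits and regulators 1 was called. Arnt2, a paralog of the beta subunit Arnt that pairs with the alpha subunits, read 8.29, 8.07 and 8.01 on Ly49E+CD8aa+ arrays, 7.74, 7.80 and 7.62 on Ly49E+CD8aa- arrays and 8.46, 8.51 and 8.28 on Ly49E-CD8aa+ arrays. The Ly49E+CD8aa- arrays were the lowest 3. It fell by 0.70 in Ly49E+CD8aa- against Ly49E-CD8aa+ cells (95% interval -0.92 to -0.48, limma adjusted p = 0.00547), and its difference of 0.40 in Ly49E+CD8aa+ against Ly49E+CD8aa- cells was not called (adjusted p = 0.0995). Arnt itself differed by at most 0.08 between populations.

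Of 12 other sugar and monocarboxylate carriers 1 was called: Slc2a6 (GLUT6) read 6.17, 6.08 and 6.29 on Ly49E+CD8aa+ arrays, 6.73, 6.57 and 6.67 on Ly49E+CD8aa- arrays and 6.33, 6.32 and 6.15 on Ly49E-CD8aa+ arrays. It fell by 0.48 in Ly49E+CD8aa+ against Ly49E+CD8aa- cells (limma adjusted p = 0.0204) and rose by 0.39 in Ly49E+CD8aa- against Ly49E-CD8aa+ cells (adjusted p = 0.049). The first call was lost without Ly49E+CD8aa+ replicate 1 or 2 or Ly49E+CD8aa- replicate 1 or 3 (adjusted p 0.0766, 0.0883, 0.0888 and 0.0807), and the second in 13 of 18 alternatives, among them without any one of the 9 arrays (adjusted p 0.0562 to 0.177).

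Among 20 growth and nutrient signalling genes, Pik3cd, the leukocyte catalytic subunit of PI3-kinase, read 10.12, 9.88 and 10.02 on Ly49E+CD8aa+ arrays, 9.51, 9.47 and 9.50 on Ly49E+CD8aa- arrays and 10.16, 9.92 and 9.88 on Ly49E-CD8aa+ arrays. It rose by 0.52 in Ly49E+CD8aa+ against Ly49E+CD8aa- cells (limma adjusted p = 0.0232) and fell by 0.50 in Ly49E+CD8aa- against Ly49E-CD8aa+ cells (adjusted p = 0.0241). Irf4, a transcription factor induced by antigen receptor signals, read 5.07, 4.92 and 5.02 on Ly49E+CD8aa+ arrays, 5.44, 5.93 and 5.72 on Ly49E+CD8aa- arrays and 5.35, 5.39 and 5.40 on Ly49E-CD8aa+ arrays. It fell by 0.69 in Ly49E+CD8aa+ against Ly49E+CD8aa- cells (adjusted p = 0.014) and differed by 0.32 in Ly49E+CD8aa- against Ly49E-CD8aa+ cells (adjusted p = 0.321). The first Pik3cd call was lost without Ly49E+CD8aa+ replicate 1 or 3 or any Ly49E+CD8aa- array (adjusted p 0.0794 to 0.0914), the second without any Ly49E+CD8aa- array or Ly49E-CD8aa+ replicate 1 or 2 (0.0566 to 0.093), and the Irf4 call without Ly49E+CD8aa+ replicate 2 or 3 or Ly49E+CD8aa- replicate 3 (0.0704, 0.0584 and 0.0638). 

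**Figure D5:**
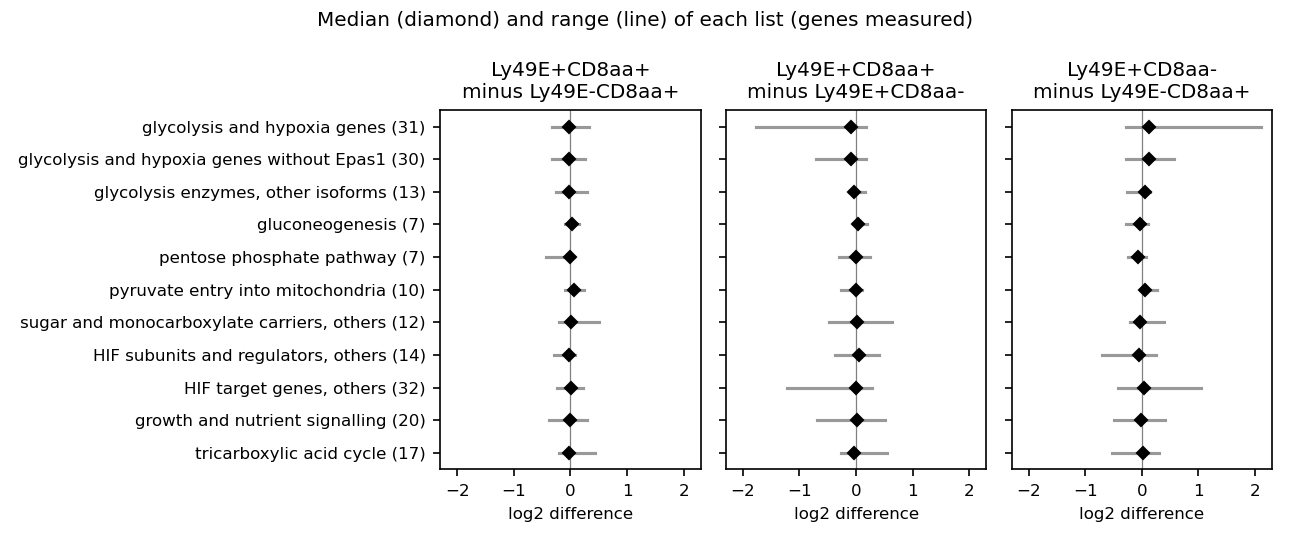
Median (diamond) and range (line) of the log2 differences (horizontal axes) of the 31 genes, of 30 without Epas1 and of the 9 companion lists (vertical axis, with the genes measured), in the 3 comparisons. The medians of the companion lists lie between -0.07 and 0.06, those of the glycolysis and hypoxia genes at -0.02, -0.10 and 0.13, and the line that reaches furthest from 0 is that of Epas1.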

How the data were processed

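Total RNA from sorted mouse intraepithelial lymphocytes was hybridised to 9 single-channel arrays, 3 per population; the populations were taken from the sample labels. The table the authors deposited holds RMA output (named in the submitters' processing notes) on a log2 scale, for 35556 rows and 9 arrays; the sources used here give no RMA version, build or annotation. The number of arrays limits the precision: the SE of a log2 difference over the 31 genes was 0.058 to 0.251.

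Rows were named by the platform annotation, with symbols updated through gene identifiers; 21789 rows carried 1 symbol, 1621 several and 12146 were not listed. Rows with several symbols were left out, no filter on low values was set, and the row with the highest mean stood for each of 19938 genes.

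A mean per population was fitted to all 9 arrays with limma 3.58.1 in R 4.3.3, without a block (residual degrees of freedom 6, prior 3.08). All tests were 2-sided, with genes called at a Benjamini-Hochberg adjusted p under 0.05 over all genes. A gene of the set was named with its test where it was called, or where its arrays did not overlap between populations and its log2 difference was at least 0.5; other genes were described by level, range and count, and of the companion lists the called genes were named. Pfkp, Pgk1, Pgam1, Aldoa, Ldhb, Hk2, Pfkfb3, Hilpda, Pecam1, Cdh5, Cd3e, Prf1, Il2rb, Itgae and Id2 were given beyond this rule after their values were seen. So were the enterocyte markers Alpi, Krt20, Rbp2, Apoa4, Vil1, Fabp1, Fabp2, Apoa1, Lct, Slc5a1, Epcam and Sis. The genes and lists were chosen with earlier results of these data known. Alternatives were filters on dim rows, normalization, centring, variance moderation, several rows per gene, the replicate number as a block, leaving out each array, the 6 arrays of a comparison alone and a minimum difference.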

Additional observations from a re-analysis of the deposited data

How the results depend on the processing

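The counts of called glycolysis and hypoxia genes, 0 and 1 as given above, kept their values in each of the 19 alternatives run for the pairwise comparisons and the 17 run for the F test. Epas1 was called in both comparisons with Ly49E+CD8aa- cells in all 18 alternatives that gave it a value: its difference ran from -1.86 to -1.66 in Ly49E+CD8aa+ against Ly49E+CD8aa- cells (largest adjusted p 0.0019), and from 1.97 to 2.20 in Ly49E+CD8aa- against Ly49E-CD8aa+ cells (largest adjusted p 0.00251). Egln3 was called in none of 17 alternatives (smallest adjusted p 0.0675 and 0.137 in those comparisons), and Arnt2 was called in Ly49E+CD8aa- against Ly49E-CD8aa+ cells in all 18 (largest adjusted p 0.0292). The filter at the median of row means left 26 of the 31 genes in the fit.

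With the replicate number as a block, the counts of called glycolysis and hypoxia genes were again 0 and 1, and Epas1 differed by -1.78 (adjusted p 0.000122) and 2.10 (adjusted p 4.69e-05). The call of Slc2a6 in Ly49E+CD8aa- against Ly49E-CD8aa+ cells was lost (adjusted p 0.087), and the count of all genes called in Ly49E+CD8aa+ against Ly49E-CD8aa+ cells was 17, against 26 without the block. Deviations from the population means correlated between arrays of the same number at -0.06 to 0.22, over 0.1 in 4 of 9 pairs, against 1 of 18 pairs of different number (-0.17 to 0.10). The 3 pairs of replicate 1 were at 0.17, 0.22 and 0.13, while other same-number pairs went down to -0.06. Most enterocyte markers followed the number. Replicate 1 read highest in each population for Alpi, Krt20, Rbp2, Apoa4, Vil1, Fabp1, Fabp2, Apoa1, Lct and Slc5a1. For Epcam and Sis another Ly49E+CD8aa+ replicate read highest. Krt20 read 8.88, 8.11 and 7.91 on Ly49E+CD8aa+, 9.06, 8.27 and 7.36 on Ly49E+CD8aa- and 8.94, 7.93 and 7.26 on Ly49E-CD8aa+ arrays. The labels name no shared mouse or day, and the main fit did not pair the arrays. Whether arrays of the same number share a preparation was not tested.

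Counts over all genes moved more. In Ly49E+CD8aa+ against Ly49E-CD8aa+ cells the 26 became 16 with the filter at the median, 0 with the 6 arrays alone (fewer arrays in the fit), and 5 to 32 when single arrays were left out. In Ly49E+CD8aa+ against Ly49E+CD8aa- cells 339 became 158 with a minimum difference of 1. In Ly49E+CD8aa- against Ly49E-CD8aa+ cells 429 became 189 with that minimum and 263 with the 6 arrays alone. The F test's 405 became 248 without Ly49E+CD8aa- replicate 3. With the 6 arrays alone, calls were lost for Slc2a6 (adjusted p 0.0517 and 0.0954 in the comparisons in which it was called), Irf4 (0.0866), Pik3cd in Ly49E+CD8aa- against Ly49E-CD8aa+ cells (0.0636) and Klra5 in Ly49E+CD8aa+ against Ly49E-CD8aa+ cells (0.101). The cause of the other shifts was not tested.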

Other observations

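Replicate 1 was the highest array of its population for 15 of the 31 glycolysis and hypoxia genes in Ly49E+CD8aa+ cells (48.4%) and for 16 in Ly49E-CD8aa+ cells (51.6%), against 49.2% and 50% of all genes in those populations. In these populations the size of the shift was larger than that of the whole table. The median deviation of replicate 1 from its population mean was 0.06 over the 31 genes and 0.09 over the 20 genes from glucose uptake to lactate in Ly49E+CD8aa+ cells, against 0.02 over all genes. In Ly49E-CD8aa+ cells it was 0.09 over the 31 genes and 0.09 over the 20, against 0.03 over all genes. Replicate 1 of the Ly49E+CD8aa- cells was the highest array for 12 of the 31 genes (38.7%, against 37.8% of all genes). Its median deviation was 0.004 over the 31 genes and 0.013 over the 20, against 0 over all genes. These are descriptions with no test.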
